A study of Homo sapiens with 4 samples.

Results

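F-box proteins are the substrate receptors of the SCF ubiquitin ligases, and the transcripts of 49 F-box genes were followed in fusion-negative rhabdomyosarcoma (FN-RMS) cells with and without depletion of one more such receptor, SKP2. The genes were all those whose symbol consists of FBXO, FBXW or FBXL and a number, leaving out FBXW7 and FBXO32. There were 60 of them, and 49 averaged 1 TPM or more across the 4 libraries, which was also the minimum met by 12985 of all 39323 genes. TPM are transcript abundances corrected for transcript length and scaled to the same total in each library. The rule used no difference between libraries.

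The libraries came from RD and JR1, established FN-RMS lines with mutated p53. Each line was infected with a lentivirus expressing an shRNA against SKP2 (shSKP2.2, here shSKP2) or a non-targeting shRNA (shSCR), and was selected with puromycin, so the control cells carry a vector too. Poly-A RNA from each line and condition gave 1 library, 4 in all. Differences within a line therefore lack replicates and carry no p-value. A fit over both lines, with the line as a block, would leave 1 residual degree of freedom and was not run. TPM keep no read numbers, so the depth behind a value is unknown. 6 of 7 muscle lineage markers, among them DES, MYOD1 and MYOG, had at least 1 TPM in every library and MYF5 was listed at 0 in all. None of 8 markers of blood, epithelium and endothelium was above 0.16 TPM, and their summed level was 0.15 to 0.26 TPM per library, with 3 or 4 of them at 0.

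In an SCF complex the F-box binds SKP1, SKP1 binds the scaffold CUL1, and RBX1 at the other end of the scaffold brings in the ubiquitin-conjugating enzyme. A second domain of the F-box protein selects the substrate. FBXW proteins carry WD40 repeats there, FBXL proteins leucine-rich repeats, and FBXO proteins other domains or none that are shared. Many receptors compete for one pool of SKP1 and CUL1, so that the relative amounts of the receptors shape what the complexes degrade. SKP2, itself of the leucine-rich class, is known for the degradation of the CDK inhibitors that hold cells in G1.

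For each line a change is the log2 ratio of shSKP2 to shSCR, taken after 1 TPM was added to both values. Short structural RNAs took 58.6% to 72.1% of the TPM, with a larger share after shSKP2 in each line, and the median change of all 12985 genes was -0.27 in RD and -0.21 in JR1. Each change is therefore given relative to this median and called the relative change. A relative change of 0 means that a gene moved as the median gene did. A member is said to have risen or fallen when its relative change passed 1.5-fold, which is 0.58 on this scale. The added 1 TPM understates the log2 ratio of low genes, and after centring this can move their relative change above 0. FBXL13 in RD, for example, had 0.23 and 0.15 TPM, a TPM ratio of 0.65, and a relative change of 0.17.

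SKP2 stood above all 49 members in both control libraries. With 92.8 TPM in RD shSCR it was higher than FBXO7, the highest member there, which had 51.0 TPM. In JR1 shSCR SKP2 had 46.5 TPM against 42.8 TPM for FBXW5. With shSKP2 it had 7.40 TPM in RD and 2.72 TPM in JR1, and it was then 23rd and 40th of the 50 transcripts. Its part of the summed TPM of these 50 transcripts went from 14.4% to 1.54% in RD and from 8.63% to 0.613% in JR1.

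The other receptors kept most of their order. The Spearman correlation between the levels of the 49 members in shSCR and shSKP2 was 0.94 in RD and 0.86 in JR1, and it was 0.92 between the control libraries of the lines. These are correlations across genes, which are not independent replicates. Their summed TPM was 551 and 474 in RD and 492 and 441 in JR1, each time in the order shSCR and shSKP2. 10 members supplied 49.2% to 53.3% of this sum in every library, namely FBXO7, FBXW5, FBXO10, FBXL19, FBXW2, FBXO21, FBXL12, FBXW11, FBXO5 and FBXL14. The median member had 6.54 to 7.85 TPM. FBXL13, with a mean of 1.35 TPM, lay just inside the minimum and FBXL7, with 0.85 TPM, just outside.

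**Figure D1:**
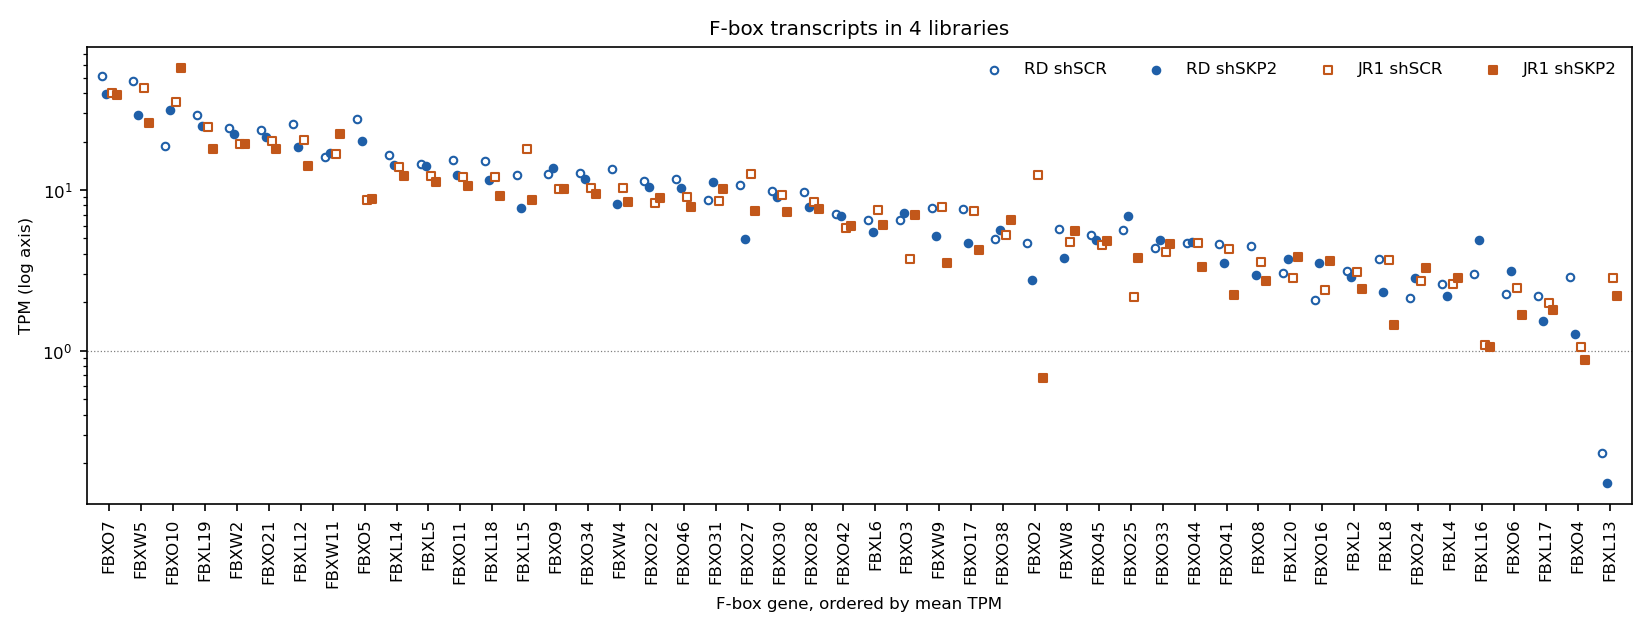
TPM on a log axis of 48 of the 49 F-box genes in each of the 4 libraries, ordered by mean TPM, with open symbols for shSCR and filled symbols for shSKP2 (1 library each, no error bars). Most genes show 4 points close together, while FBXO2 spans 0.68 to 12.3 TPM and FBXL13 has at least 2.20 TPM in JR1 and at most 0.23 TPM in RD.

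With SKP2 depleted, the centre of the family stayed close to that of all genes. The median member had a relative change of 0.11 in RD and 0.08 in JR1, where the median of all tested genes is 0 by construction. The middle part of the members, from the 25th to the 75th percentile, reached from -0.17 to 0.36 in RD and from -0.15 to 0.31 in JR1. For all tested genes these limits were -0.29 and 0.27 in RD and -0.34 and 0.29 in JR1. Of the 49 members, 30 were above the median of all genes in RD and 29 in JR1. The sign of the family's median follows the scaling, since in unscaled TPM it was -0.16 for RD and -0.13 for JR1.

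In RD 5 of 49 members rose (10.2%, against 8.33% of all tested genes) and 1 fell (2.04%, against 11.2%). In JR1 5 members rose, again 10.2% and against 10.2% of all tested genes, and 4 fell (8.16%, against 14.6%). The share of rises lay near the background in each line. The balance of rises and falls depends on the scaling, as the TPM as deposited gave 1 rise against 7 falls for RD and 3 against 8 for JR1. There the median of all tested genes was itself -0.27 in RD and -0.21 in JR1. The shares of all tested genes given here belong to the centred scale. At a limit of 2-fold 0 members rose in RD or JR1, where 2.09% and 2.99% of all tested genes did, and 1 fell, FBXO2 in JR1, where 5.47% of all tested genes did. In RD 0 members and 3.53% of all tested genes fell by 2-fold.

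2 members, FBXO10 and FBXO16, rose in both lines, 4.08% of the members against 4.62% of all tested genes. None fell in both lines, against 8% of all tested genes. FBXL15, FBXO2, FBXO17, FBXO27 and FBXW5 passed 1.5-fold downwards in both lines when the TPM were not centred. The 8% belongs to the centred scale and has no counterpart here for the uncentred one. Across the 49 members the relative changes of RD and JR1 correlated with r = 0.60 (Pearson) and rho = 0.69 (Spearman), beside 0.62 and 0.70 over all tested genes. Without FBXO2 the Pearson r of the remaining 48 was 0.70. The comparisons share no library. 23 members (46.9%, against 37.9% of all tested genes) were above the median of all genes in both lines. 13 (26.5%, against 37.9%) were below it in both, and 13 were above it in 1 line only.

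**Figure D2:**
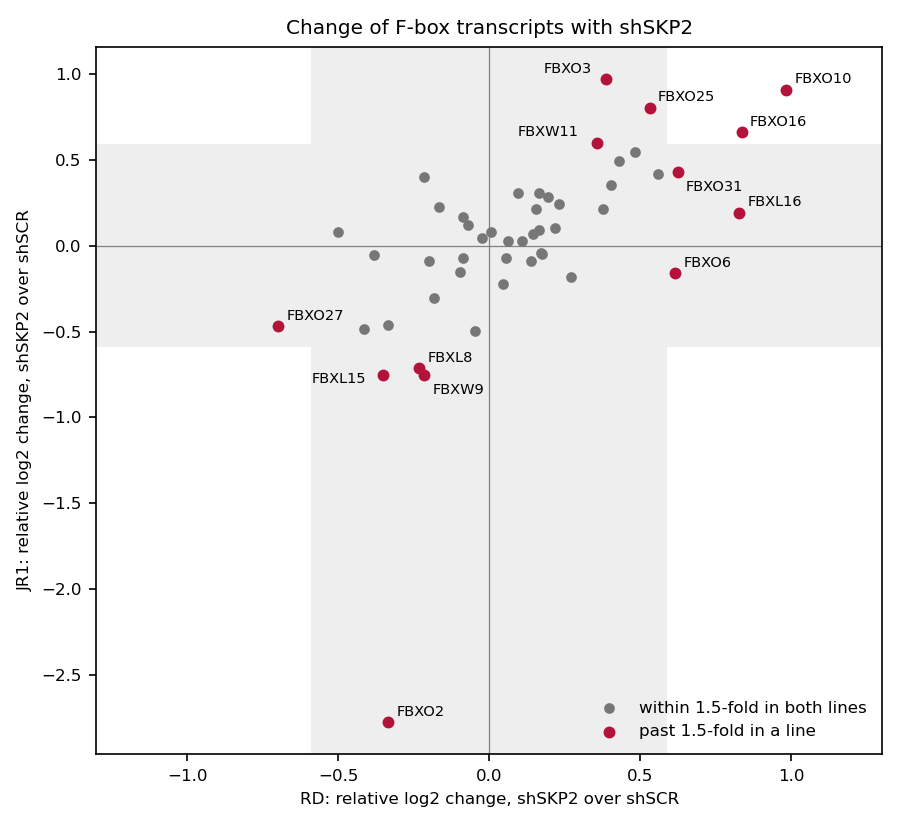
Relative log2 change with shSKP2 in RD (horizontal) and JR1 (vertical) of the 49 F-box genes, 1 point per gene, with the grey bands marking changes under 1.5-fold. FBXO10 and FBXO16 lie outside the bands at the upper right and FBXO2 stands apart at the bottom, at -0.33 in RD and -2.78 in JR1.

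FBXO10 was the clearest rise shared by the lines. Its protein is a receptor known for the turnover of the survival factor BCL2. FBXO10 had 18.8 TPM in RD shSCR and 31.4 TPM in RD shSKP2, and 35.1 TPM in JR1 shSCR and 57.5 TPM in JR1 shSKP2. The shSKP2 library was the higher one in each line, and JR1 was higher than RD in each condition. The relative change was 0.98 in RD and 0.91 in JR1. It was 0.71 and 0.70 for the TPM as deposited. After short structural RNA genes were removed it was 1.15 and 0.97, again without centring. The change thus passed 1.5-fold under each scaling. FBXO10 was the highest of the 49 members in JR1 shSKP2, whereas FBXW5 and FBXO7 stood above it in JR1 shSCR. The gene lies on chromosome 9 (GRCh38).

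The start of FBXO10 is shown because this was the largest rise among the members in RD and because E-boxes are the motif of MYOD, the myogenic factor that the study places upstream of SKP2. The RefSeq window (GRCh38.p14, chr9:37576331-37576630, minus strand) runs from 250 bases before the annotated start of transcription to 50 bases after it. Capitals mark the E-box CAGCTG, a palindrome, which was searched together with CACCTG on both strands.

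FBXO10: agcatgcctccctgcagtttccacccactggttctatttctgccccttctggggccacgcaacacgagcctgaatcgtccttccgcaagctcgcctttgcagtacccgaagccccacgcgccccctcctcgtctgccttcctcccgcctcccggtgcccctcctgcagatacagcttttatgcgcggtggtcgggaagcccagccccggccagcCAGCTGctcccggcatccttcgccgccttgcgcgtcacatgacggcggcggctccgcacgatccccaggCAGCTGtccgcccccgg

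CAGCTG occurred at 2 places, beginning at -36 and 33 counted from the start of transcription. CAGCTG was in 10 of the 53 windows of the 37 members that have an entry in this table, or 18.9%, beside 17.9% of all 35116 windows. The other holders were FBXL2, FBXL14, FBXO5, FBXO8, FBXO9, FBXO30, FBXO41, FBXO42 and FBXW8, none of which rose in either line. CACCTG or its reverse complement was in 11 of the 53 windows, or 20.8%, beside 20.6% of all windows. Its holders included FBXO6 and FBXO31, which rose in RD, and FBXO27, which fell in RD. The others were FBXL2, FBXL19, FBXL20, FBXO7, FBXO34, FBXO38 and FBXW4, none of which passed 1.5-fold in a line. The members' windows thus held either motif about as often as all windows did. A match describes the letters of the window and is not a measured binding site.

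FBXO16, on chromosome 8, was low and also rose in both lines. It had 2.06 and 3.53 TPM in RD shSCR and shSKP2 and 2.39 and 3.62 TPM in JR1. Its relative change was 0.84 in RD and 0.66 in JR1. Without centring these were 0.57 and 0.45, below 1.5-fold.

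Other members passed 1.5-fold in 1 line only. FBXO3, which takes part in inflammatory and antiviral signalling, had 3.69 TPM in JR1 shSCR and 6.93 TPM in JR1 shSKP2, a relative change of 0.97. In RD FBXO3 had 6.52 and 7.15 TPM, or 0.39. FBXO25, the close relative of FBXO32, had 2.16 and 3.76 TPM in JR1 and 5.60 and 6.91 TPM in RD, and its relative change was 0.81 in JR1 and 0.53 in RD. FBXL16 is an orphan member that does not assemble a typical ligase, and it had 3.01 and 4.90 TPM in RD, a relative change of 0.83, against 1.08 and 1.05 TPM in JR1, where the relative change was 0.19. The difference between the lines was not tested for any of these genes. Without centring FBXL16 was at 0.56 in RD, below 1.5-fold, while FBXO3 and FBXO25 still passed it in JR1.

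For the members with known roles in the cell cycle, 11 of the 13 listed were above the minimum, and their median relative change was 0.00 in RD and 0.22 in JR1. 1 rose in each line, where 8.33% of all tested genes rose in RD and 10.2% in JR1. Falls numbered 0, where 11.2% of all tested genes fell in RD and 14.6% in JR1. Without centring FBXW5 passed 1.5-fold downwards in both lines and FBXO4 in RD, at -0.77. FBXO31, a checkpoint receptor that targets cyclin D1 after DNA damage, had 8.60 and 11.3 TPM in RD, a relative change of 0.62, and 8.56 and 10.1 TPM in JR1, or 0.43. FBXW11, also called β-TrCP2, recognises phosphorylated substrates such as β-catenin, IκB and EMI1. FBXW11 had 16.7 and 22.2 TPM in JR1 with a relative change of 0.60, and 16.0 and 17.1 TPM in RD with 0.36. Without centring the rises of FBXO31 in RD and FBXW11 in JR1 were 0.35 and 0.39, below 1.5-fold.

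FBXO5 encodes EMI1, an inhibitor of the anaphase-promoting complex and a well-known E2F target of S and G2 phase. FBXO5 had 27.6 and 20.1 TPM in RD shSCR and shSKP2 and 8.71 and 8.78 TPM in JR1. Its relative change was -0.17 in RD and 0.22 in JR1, within 1.5-fold in each line, and the gap between the lines exceeded the gap between the conditions. FBXW5, a regulator of centriole duplication through SASS6, was the member with the second highest mean and had 47.5 and 29.2 TPM in RD and 42.8 and 26.0 TPM in JR1. Its relative change of -0.41 in RD and -0.48 in JR1 did not pass 1.5-fold. On the unscaled TPM FBXW5 passed it, at -0.68 in RD and -0.70 in JR1.

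FBXL12, a receptor known to act on the CDK inhibitors p21 and p57, had 25.7 and 18.5 TPM in RD and 20.6 and 14.1 TPM in JR1, with relative changes of -0.18 and -0.30. FBXO4, which has been linked to cyclin D1, had 2.87 and 1.27 TPM in RD and 1.06 and 0.88 TPM in JR1, with relative changes of -0.50 and 0.08. C5orf51, which overlaps FBXO4 by 3576 bases in the files, had 13.4 and 5.01 TPM in RD and 11.4 and 5.13 TPM in JR1. It was lower with shSKP2 in both lines, and its part in the value of FBXO4 was not tested. FBXO7, a member with roles in mitophagy and the proteasome, had 51.0 and 39.7 TPM in RD and 39.9 and 38.7 TPM in JR1. Its relative changes were -0.09 and 0.17. FBXO22, which has been tied to histone demethylase turnover, had 11.3 and 10.4 TPM in RD and 8.24 and 8.87 TPM in JR1. The relative changes of FBXO22, FBXO28, FBXO38 and FBXO42 lay between 0.00 and 0.49, within 1.5-fold in both lines. FBXO28 had 9.65, 7.86, 8.40 and 7.58 TPM in RD shSCR, RD shSKP2, JR1 shSCR and JR1 shSKP2. In the same order FBXO38 had 4.95, 5.65, 5.21 and 6.54 TPM and FBXO42 had 7.13, 6.92, 5.83 and 5.96 TPM. FBXL7 and FBXO43, the other cell cycle members, were below the minimum.

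The member with the lowest relative change in each line, FBXO27 in RD and FBXO2 in JR1, was one of 5 genes with an F-box-associated (FBA) domain. FBXO2 and FBXO6 use this domain to bind N-glycans of misfolded glycoproteins, and FBXO17, FBXO27 and FBXO44 share it. FBXO2, FBXO44 and FBXO6 lie side by side on chromosome 1, and FBXO17 and FBXO27 lie near each other on chromosome 19. The group's median relative change was -0.33 in RD and -0.46 in JR1, against 0 for all tested genes, and in JR1 all 5 were below the median of all genes. These medians include FBXO27 and FBXO2, by which the group was introduced. In RD FBXO6 (0.61) and FBXO44 (0.27) were above the median of all genes, while FBXO17 (-0.33) was below it. 1 of the 5 rose and 1 fell in RD, and 1 fell in JR1, beside the 8.33%, 11.2% and 14.6% of all tested genes given above.

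FBXO2 had 4.70 TPM in RD shSCR, 2.75 TPM in RD shSKP2, 12.3 TPM in JR1 shSCR and 0.68 TPM in JR1 shSKP2. The JR1 control was the highest and the JR1 knockdown the lowest of the 4 libraries. In JR1 the TPM ratio was 18.2-fold and the relative change -2.78, against -0.33 in RD. The ratio was taken without the added 1 TPM and rests on the 0.68 TPM of 1 library, a value under 1 TPM. The difference between the lines was not tested. Under the other scalings the change was -2.99 (JR1) and -0.60 (RD) for the TPM as deposited, and -3.46 and -0.32 without short structural RNA genes. Neither of these scalings was centred.

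FBXO27 fell in RD, where it had 10.7 TPM in shSCR and 4.97 TPM in shSKP2, a relative change of -0.70. In JR1 FBXO27 had 12.5 and 7.40 TPM, a relative change of -0.47, so the shSKP2 library was the lower one in each line. FBXO17 had 7.57 and 4.64 TPM in RD and 7.38 and 4.24 TPM in JR1. Its relative changes of -0.33 and -0.46 did not pass 1.5-fold. FBXO6 rose in RD, from 2.26 to 3.14 TPM and with a relative change of 0.61, and in JR1 it had 2.46 and 1.67 TPM and a relative change of -0.16. Without centring the change of FBXO6 in RD was 0.34, below 1.5-fold.

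**Figure D3:**
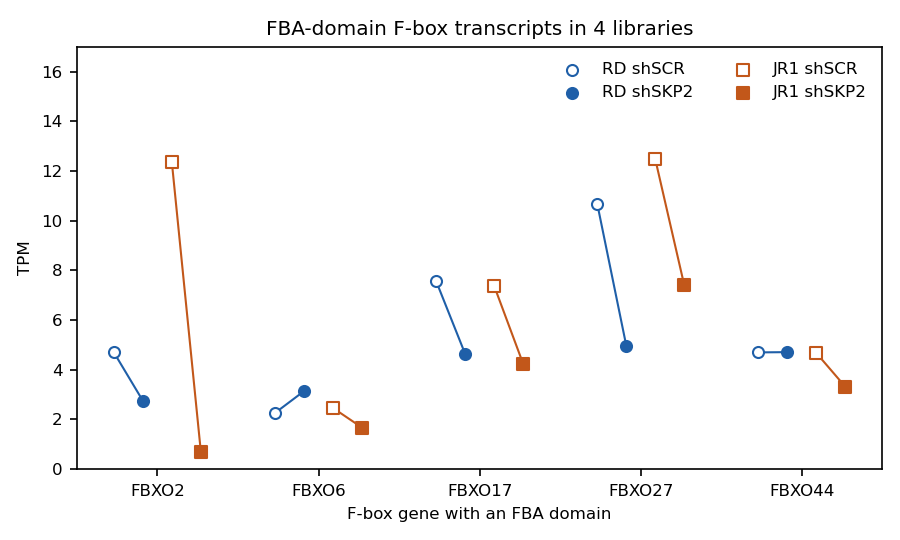
TPM of the 5 F-box genes with an FBA domain, with lines joining shSCR (open) and shSKP2 (filled) of the same cell line and 1 library per point. FBXO2 in JR1 drops from 12.3 to 0.68 TPM, FBXO17 and FBXO27 slope down in both lines, and FBXO44 in RD is level at 4.70 and 4.71 TPM.

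FBXO44 starts head to head with FBXO2 and stayed within 1.5-fold in each line, though it too was lower with shSKP2 in JR1. FBXO44 had 4.70 and 4.71 TPM in RD, a relative change of 0.27, and 4.67 and 3.31 TPM in JR1, a relative change of -0.18. The genes overlap by 55 bases on chromosome 1, where FBXO2 spans bases 11648387 to 11654429 and FBXO44 bases 11654375 to 11663327. The sequence at their starts is shown because FBXO2 and FBXO44 share it. The RefSeq window of FBXO2 (GRCh38.p14, chr1:11654380-11654679, minus strand) covers 250 bases before its start and 50 after, and capitals mark the 77 bases that also lie in the window of FBXO44 on the opposite strand.

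FBXO2: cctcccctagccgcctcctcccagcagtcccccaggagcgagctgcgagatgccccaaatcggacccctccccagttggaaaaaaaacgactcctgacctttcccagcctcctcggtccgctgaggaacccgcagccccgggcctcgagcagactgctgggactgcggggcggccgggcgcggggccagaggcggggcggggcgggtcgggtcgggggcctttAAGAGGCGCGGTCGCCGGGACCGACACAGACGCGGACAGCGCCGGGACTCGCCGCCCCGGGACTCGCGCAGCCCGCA

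Neither E-box occurred in this window, of which 73.3% was G or C. The median window of the members was 68% and that of all genes 58.7% G or C. The libraries were directional, but a strand setting of the quantification is not given in the sources used here, and reads from the overlap could have been assigned to either gene.

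Other falls in JR1 were those of FBXL15, FBXW9 and FBXL8. FBXL15 is the receptor for the ligase SMURF1 of the BMP pathway. FBXL15 had 17.9 and 8.69 TPM in JR1, a relative change of -0.75, and 12.4 and 7.68 TPM in RD, or -0.35. FBXW9 had 7.85 and 3.52 TPM in JR1, or -0.76, and 7.67 and 5.19 TPM in RD, or -0.22. FBXL8 had 3.66 and 1.45 TPM in JR1, or -0.71, and 3.70 and 2.32 TPM in RD, or -0.23. The shSKP2 library was thus the lower one in both lines for each of these genes. HSF4, which overlaps FBXL8 by 414 bases, had 2.69 and 1.25 TPM in JR1 and 3.10 and 1.37 TPM in RD. PSD overlaps FBXL15 by 943 bases and had 2.24 and 0.81 TPM in JR1 and 0.75 and 0.36 TPM in RD. Both neighbours were lower with shSKP2 in each line. The part of either neighbour in these values was not tested.

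Of 6 members with ties to muscle, 4 were above the minimum. The summed TPM of the muscle lineage markers was 379 and 534 in RD shSCR and shSKP2 and 511 and 743 in JR1. CHRNA1 made up most of this sum, with 196, 314, 284 and 425 TPM in the same order. PAX7 had 10.8 and 3.36 TPM in RD and 4.84 and 1.16 TPM in JR1, and DES had 51.3 and 35.97 TPM in JR1, so that not all markers were higher with shSKP2. Their part in the values of the members was not tested. FBXO30, also called MUSA1, is a receptor of muscle atrophy and had 9.91 and 8.97 TPM in RD and 9.26 and 7.31 TPM in JR1. Its relative changes were 0.14 and -0.09. FBXO9 had 12.6 and 13.6 TPM in RD and 10.2 and 10.2 TPM in JR1, with relative changes of 0.38 and 0.21. FBXO21, also linked to muscle atrophy, had 23.5 and 21.4 TPM in RD and 20.04 and 18.1 TPM in JR1, or 0.14 and 0.07. The muscle-restricted FBXO40 did not exceed 0.02 TPM, and FBXL22, known from the sarcomere of the heart, had 0.11 and 0.23 TPM in RD and 0.23 and 0.66 TPM in JR1. The rise of FBXO25 in JR1, where 10.2% of all tested genes rose, was thus the 1 call among these 4 members. Their median was 0.26 in RD and 0.14 in JR1.

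Members with roles in iron, mitochondrial and signalling pathways are given next. The iron sensor FBXL5 had 14.6 and 14.0 TPM in RD and 12.2 and 11.2 TPM in JR1, with relative changes of 0.22 and 0.11. FBXL4, a regulator of mitophagy, had 2.60 and 2.19 TPM in RD and 2.60 and 2.84 TPM in JR1, or 0.10 and 0.31. Both genes thus lay within 1.5-fold in each line. FBXL14, which degrades SNAI1, had 16.6 and 14.2 TPM in RD and 13.9 and 12.1 TPM in JR1, or 0.06 and 0.03. FBXO11, a receptor for BCL6, had 15.3 and 12.3 TPM in RD and 12.0 and 10.6 TPM in JR1. FBXO45, known from neurons, had 5.21 and 4.90 TPM in RD and 4.56 and 4.83 TPM in JR1. The relative changes of these 3 genes lay between -0.02 and 0.28. FBXW2 had 24.4 and 22.4 TPM in RD and 19.4 and 19.4 TPM in JR1, or 0.15 and 0.21. FBXL15 was the 1 of the 5 signalling members that fell, in JR1, where 14.6% of all tested genes fell.

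By domain class, the 6 FBXW members had a median relative change of -0.22 in RD and 0.08 in JR1, with 1 rise and 1 fall, both in JR1. The 15 FBXL members had medians of 0.06 and -0.05, with 1 rise in RD and 2 falls in JR1. The 28 FBXO members had medians of 0.17 and 0.13, with 4 rises and 1 fall in each line. Of all tested genes 8.33% rose and 11.2% fell in RD, and 10.2% rose and 14.6% fell in JR1. Classes of this size were not tested against these shares. Within 1.5-fold lay 87.8% of the 49 members in RD and 81.6% in JR1, against 80.5% and 75.2% of all tested genes. The members outside these lists and calls included FBXL2, FBXL6, FBXL17, FBXL18, FBXL19, FBXL20, FBXO8, FBXO24, FBXO33, FBXO34, FBXO41, FBXO46, FBXW4 and FBXW8. None of them passed 1.5-fold in a line, and the highest was FBXO24 in RD at 0.56. FBXL19, the member with the fourth highest mean, had 29.3 and 24.97 TPM in RD and 24.6 and 17.9 TPM in JR1, with relative changes of 0.05 and -0.22.

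RD and JR1 were then compared with each other within each condition, again as log2 ratios after adding 1 TPM, and the median ratio of the tested genes was subtracted. The pair of shSCR libraries and the pair of shSKP2 libraries share none. In both pairs 2 members were lower in RD by 2-fold, FBXO10 and FBXL13, 4.08% of the members against 2.53% of all tested genes. FBXL13 was under 1 TPM in both RD libraries and met the minimum only through JR1, so its call follows in part from the minimum. 0 members were higher in RD by 2-fold in both pairs, against 2.11% of all tested genes. FBXO10 differed by -1.10 between the shSCR libraries and by -1.02 between the shSKP2 libraries. These calls depend on the scaling. With the TPM as deposited FBXO10 did not pass 2-fold in both pairs, and FBXO5 was higher in RD by 2-fold in both.

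FBXL13 had 0.23 and 0.15 TPM in RD shSCR and shSKP2 and 2.82 and 2.20 TPM in JR1, so that the lines did not overlap. The differences were -1.87 and -1.65. Genes that overlap FBXL13 on chromosome 7 were higher in JR1 too. LRRC17 had 113 and 111 TPM in RD and 477 and 269 TPM in JR1, ARMC10 had 14.8 and 15.3 TPM against 54.4 and 42.9 TPM, and FAM185A had 2.32 and 1.28 TPM against 6.91 and 4.92 TPM. The part of these neighbours in the value of FBXL13 was not tested.

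In the other direction FBXO5 came nearest, with differences of 1.33 between the shSCR libraries and 0.94 between the shSKP2 libraries. FBXL16 followed, with 0.72 and 1.35. FBXO2 alone changed sides beyond 1.5-fold, with a difference of -1.46 between the shSCR libraries and 0.99 between the shSKP2 libraries.

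**Figure D4:**
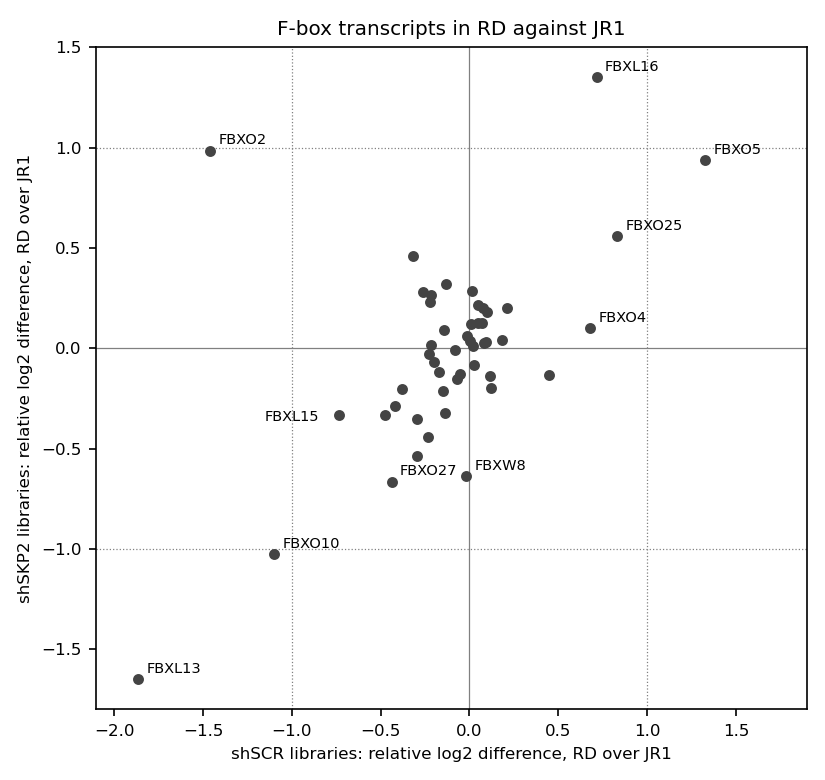
Relative log2 difference of RD over JR1 for the 49 F-box genes, in the shSCR libraries (horizontal) and the shSKP2 libraries (vertical), with dotted lines at 2-fold. FBXL13 and FBXO10 lie past 2-fold at the lower left, FBXO5 and FBXL16 at the upper right past 2-fold in 1 pair each, and FBXO2 at the upper left.

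The machinery that F-box proteins join was read from lists of named genes. SKP1 had 24.97 and 24.4 TPM in RD and 26.5 and 27.7 TPM in JR1, and CUL1 had 22.1 and 20.2 TPM in RD and 17.8 and 19.1 TPM in JR1. Their relative changes lay between 0.15 and 0.31. RBX1 had 30.1 and 17.4 TPM in RD and 20.2 and 15.2 TPM in JR1 and did not pass 1.5-fold. Without centring RBX1 was at -0.75 in RD, past 1.5-fold. CKS1B, the cofactor that SKP2 needs to bind p27, fell in both lines. It had 210 and 111 TPM in RD and 120 and 47.1 TPM in JR1, with relative changes of -0.64 and -1.12. Its relative CKS2 had 85.7 and 58.1 TPM in RD, or -0.28, and fell in JR1 from 56.5 to 23.4 TPM, or -1.02.

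Of 11 genes of the NEDD8 path, which activates the cullin, 1 rose in RD (DCUN1D3, 0.66) and 0 passed 1.5-fold in JR1, with medians of 0.11 and 0.17. NEDD8 itself had the lowest relative change in each line, at -0.39 and -0.52. These calls depend on the scaling, as the rise of DCUN1D3 was 0.39 without centring, below 1.5-fold. On that uncentred scale NEDD8 (RD -0.66, JR1 -0.73), NAE1 (JR1 -0.64) and SENP8 (RD -0.61) lay past 1.5-fold downwards. Of 12 genes of the exchange factors CAND1 and CAND2 and the COP9 signalosome, which strips NEDD8 off, COPS7A fell in RD (-0.59) and COPS3 rose in JR1 (0.71). Their medians were -0.05 and 0.04. Without centring COPS3 was at 0.49 in JR1, below 1.5-fold. COPS4 (-0.64 and -0.61) and COPS7A (-0.86 and -0.59) then passed it downwards in RD and JR1. Of 8 ubiquitin-conjugating enzymes and partners, 2 rose in RD and 3 in JR1 and 0 fell, with medians of 0.24 and 0.44. Without centring none of these rises passed 1.5-fold. There UBE2D1 was at 0.53 in RD and 0.47 in JR1, GLMN at 0.40 and 0.41, and CDC34 at 0.38 in JR1. Among all tested genes 8.33% rose and 11.2% fell in RD, and 10.2% rose and 14.6% fell in JR1, and lists of this size were not tested against these shares. UBE2D1 had the highest relative change of these enzymes and partners in each line, 0.80 in RD and 0.68 in JR1. Its levels were 8.09 and 12.2 TPM in RD and 7.29 and 10.5 TPM in JR1.

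F-box genes that carry other symbols were read in the same way, and 7 of 9 were above the minimum. LMO7, a LIM-domain protein of cell junctions that also carries an F-box, rose in both lines, with 9.91 and 18.5 TPM in RD and 7.10 and 28.8 TPM in JR1. Its relative changes of 1.10 and 2.09 were larger than those of any of the 49 members in either line in that direction. BTRC, the partner gene of FBXW11, had relative changes of 0.19 and 0.13. KDM2A, KDM2B and FBH1 lay between -0.15 and 0.08. CCNF, the cyclin F gene, had 22.8 and 16.9 TPM in RD and 9.27 and 5.86 TPM in JR1, with relative changes of -0.14 and -0.37.

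**Figure D5:**
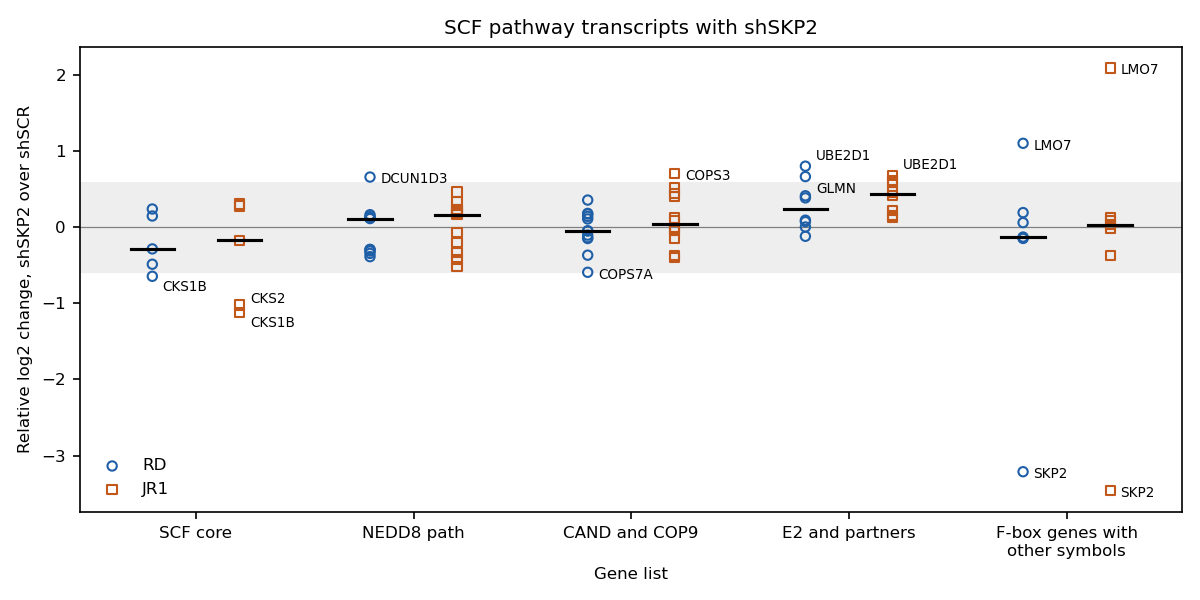
Relative log2 change with shSKP2 of genes of the SCF pathway in RD (circles) and JR1 (squares), by list, with black bars for the median of each list and the grey band for changes under 1.5-fold. SKP2 lies at -3.21 in RD and -3.46 in JR1, LMO7 at 1.10 and 2.09, and CKS1B falls below the band in both lines.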

How the data were processed

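The authors aligned the reads of each poly-A library, sequenced as pairs of 150 bases, to GRCh38 with STAR 2.7.9a and deposited, for each of the 4 libraries, the TPM that RSEM 1.3.2 estimated for every gene, rounded to 2 decimals. Depth is unknown. Relative changes were computed with 1 TPM added, for genes averaging 1 TPM or more, and centred on the median of these genes. Calls at 1.5-fold and 2-fold carry no test, as each group holds 1 library. The members, the role lists and the pathway lists were chosen with earlier results of these data known. TPM in the 4 libraries were given for members past 1.5-fold, the 10 highest members, those past 2-fold between lines and members of the role lists. The values of 1 member are not reported here. Short structural RNA genes (1070) were recognised by symbol. The alternatives were no centring, removal of these genes also without centring, 0.1 TPM added, a minimum of 5 TPM or none, and the other fold. The calling step was run on simulated data, which checks the code and not the noise of these libraries. Windows around gene starts came from RefSeq (GRCh38.p14), and 37 of 49 members matched an entry. Coordinates of genes are those of the files. Python 3.11.15, numpy 2.4.6, pandas 2.3.3 and scipy 1.17.1 were used.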

Additional observations from a re-analysis of the deposited data

Results flagged for a closer look

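FBXO6 lay on opposite sides of the median of all genes in the 2 lines. RD had a relative change of 0.61 and JR1 one of -0.16, which differ by 0.77. With the TPM as deposited the changes were 0.34 and -0.37. FBXW8, a receptor that works with CUL7, had 5.67 and 3.76 TPM in RD and 4.76 and 5.57 TPM in JR1. RD had -0.22 and JR1 0.40, so that RD minus JR1 came to -0.62. Each line has 1 library per condition, so neither difference was tested.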

How the results depend on the processing

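Each group holds 1 library, and an analysis with the lines as pairs, which would leave 1 residual degree of freedom, was not run. All 15 calls of a member in a line stayed past 1.5-fold without short structural RNA genes and with 0.1 TPM added. With the TPM as deposited 6 of the 15 dropped below 1.5-fold. Their direction could not change there, since that setting only shifts every change of a line by the same median. That setting gave medians of -0.16 in RD and -0.13 in JR1, 1 rise and 7 falls for RD, 3 and 8 for JR1, and between lines FBXO5 as the 1 member higher in RD and FBXL13 as the 1 lower. Without short structural RNA genes RD had 8 rises and 2 falls, and FBXO5 was the 1 member higher in RD than in JR1. With 0.1 TPM added RD had 2 falls (FBXO4 and FBXO27), and FBXL16 was the 1 member higher in RD than in JR1. With a minimum of 5 TPM, met by 30 members, there were 2 rises in RD and 3 in JR1, and FBXO10 was the 1 member lower in RD. With no minimum, over 59 members, the medians were -0.08 in both lines, with 3 rises and 4 falls in RD and 3 and 8 in JR1, FBXO5 as the 1 member higher in RD and FBXL13 as the 1 lower. At 2-fold there were 0 rises in either line, 0 falls in RD and 1 in JR1, and at 1.5-fold 2 members were higher in RD than in JR1 in both pairs. The shares of all tested genes given earlier belong to the main setting, and none stands beside the counts of the other settings. Without read numbers the counting error of no value is known.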

Other observations

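Of the 11 F-box genes below the minimum, FBXO48, named here after its values were seen, had 0.07 and 0.53 TPM in RD shSCR and shSKP2 and 0.08 and 0.56 TPM in JR1. Its level was higher with shSKP2 in both lines, and every value was under 1 TPM. FBXO36 had 0.96 and 0.53 TPM in RD and 1.26 and 0.58 TPM in JR1. FBXO15 had 0.22 TPM or less in every library, FBXW10, FBXW12 and FBXO39 had 0.1 TPM or less, and FBXO47 was listed at 0 in all 4. FBXL7 had 0.65 to 1.10 TPM, and FBXO43, the EMI2 gene known from oocytes, had 0.08 to 0.44 TPM.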
